A study of Mus musculus with 2 samples.

Results

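The mouse mitochondrial genome carries 37 genes, which are all the genes whose symbol starts with mt- in the annotation, out of 55536 annotated genes measured. They comprise 13 protein-coding genes, 2 ribosomal RNA genes and 22 transfer RNA genes, and all 37 were found in the deposited tables by symbol and gene identifier. RNA came from left cerebral cortex tissue of males aged 18 to 20 months of the strain B6CASTF1/J, the F1 cross of B6 with CAST, and 300 ng of it entered each library. The 2 libraries form 1 group, so there was no treatment, genotype or age to compare, and the values describe the levels of the transcripts and how far replicates 1 and 2 lay apart. Both samples carry the same donor identifier in the labels but separate biosample identifiers, so whether they are separate animals is unclear. The spread between them may thus be technical or biological, and every mean below is given with its SD over n = 2 libraries.

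Mitochondrial DNA is a small circular genome held in many copies per cell, and it encodes core subunits of the respiratory chain complexes I, III and IV and of the ATP synthase, complex V, together with the rRNAs and tRNAs that translate them. Each strand is transcribed as a long precursor, and cutting at the tRNAs that punctuate the map releases the mRNAs and rRNAs. All other proteins of these complexes, and the enzymes that transcribe, process, modify and translate mitochondrial RNA, are encoded in the nucleus. Neurons depend on this system for the ATP that ion pumping and synaptic transmission consume.

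The gene tables held 22827996 expected counts over annotated genes in replicate 1 and 29897545 in replicate 2, where an expected count is an estimate of the reads that came from a gene. TPM divides such counts by transcript length and scales them to a fixed total per library, and it was used wherever genes of different length are set side by side. Marker lists for neurons, astrocytes, oligodendrocytes, microglia, endothelium and erythroid cells had no member at 0. Their summed levels in replicates 1 and 2 were 2968 and 2806 TPM for 6 neuronal markers, 1075 and 983 TPM for 6 astrocyte markers and 679 and 706 TPM for 6 oligodendrocyte markers. They were 130 and 133 TPM for 6 microglial markers, 77.3 and 70.8 TPM for 4 endothelial markers and 459 and 447 TPM for 5 erythroid markers. The libraries stood apart in 10 markers of the striatum, a structure beneath the cortex, which summed to 222 TPM in replicate 1 and 438 TPM in replicate 2, with all 10 higher in replicate 2. In bulk tissue, fewer cells of a type and less RNA per cell cannot be told apart.

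Several of these transcripts have near-identical nuclear copies, so the stretches where each pair agrees and differs are shown here, read from the GENCODE M21 transcripts on GRCm38. A block of chromosome 1, at 24611535 to 24616197 on the minus strand, holds 7 annotated unprocessed pseudogenes that copy mitochondrial genes almost base for base. Gm28661 matched mt-Co2 at 100% identity over 681 of its 684 bases, Gm10925 matched mt-Atp6 at 100% over 678 of 681 and Gm28437 matched mt-Co3 at 100% over 783 of 784. The copy models end just before the mitochondrial ones, and the capitals mark the last bases of each mitochondrial model that its copy lacks. Each pair is given 5′ to 3′ in the sense of the transcript.
mt-Co2, chrM:7649-7696, plus strand: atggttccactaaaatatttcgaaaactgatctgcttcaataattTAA
Gm28661, chr1:24614885-24614929, minus strand: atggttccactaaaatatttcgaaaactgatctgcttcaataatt
mt-Atp6, chrM:8560-8607, plus strand: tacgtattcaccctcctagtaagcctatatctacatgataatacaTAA
Gm10925, chr1:24613974-24614018, minus strand: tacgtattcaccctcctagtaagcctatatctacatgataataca
mt-Co3, chrM:9345-9390, plus strand: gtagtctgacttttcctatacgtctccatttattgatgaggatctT
Gm28437, chr1:24613189-24613233, minus strand: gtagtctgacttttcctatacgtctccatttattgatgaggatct

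For mt-Co1 the copied stretch is the last part of the gene, and it differs near its start. Gm29216 lies at 24615706 to 24616197 of chromosome 1 and matched bases 1063 to 1545 of mt-Co1 at 99.8% identity, with 483 bases aligned. Counting from 1 at the 5′ end of mt-Co1, with the mt-Co1 base first and the copy's base last, the differences are T1056A, C1057T, A1059G, A1060G, C1062A and A1066T. Capitals mark these positions in the stretch shown, and the first part of mt-Co1 is not in the copy.
mt-Co1, chrM:6381-6425, plus strand: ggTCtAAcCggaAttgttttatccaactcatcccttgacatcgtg
Gm29216, chr1:24616153-24616197, minus strand: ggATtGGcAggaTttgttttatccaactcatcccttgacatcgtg

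The remaining copies in the block were Gm10222 for mt-Nd4l (100% identity over 294 bases), Gm28438 for mt-Nd3 (99.7% over 345 bases, T3C) and Gm28439 for mt-Nd4 (100% over 876 bases). A stretch of 100 bases, the read length inferred from the deposited length columns, was taken along each mitochondrial transcript to count the windows absent from every nuclear transcript. Only 3 of 585 such windows in mt-Co2, 3 of 582 in mt-Atp6 and 1 of 685 in mt-Co3 were unique to the mitochondrial gene. The unique windows numbered 6 of 249 in mt-Nd3 and 3 of 198 in mt-Nd4l, against 502 of 1279 in mt-Nd4, 1000 of 1446 in mt-Co1 and 909 of 939 in mt-Nd2. The transcripts mt-Rnr1, mt-Rnr2, mt-Nd1, mt-Atp8, mt-Nd5, mt-Nd6 and mt-Cytb shared no window of this length with a nuclear transcript. Only annotated transcripts were searched, so unannotated copies elsewhere in the nuclear genome were not counted here.

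mt-Atp8 is shown whole because it is the shortest of the mRNAs and ends inside mt-Atp6. Its gene (ENSMUSG00000064356.3) spans 204 bases, and the capitals mark the 43 bases that it shares with the start of mt-Atp6.
mt-Atp8, chrM:7766-7969, plus strand: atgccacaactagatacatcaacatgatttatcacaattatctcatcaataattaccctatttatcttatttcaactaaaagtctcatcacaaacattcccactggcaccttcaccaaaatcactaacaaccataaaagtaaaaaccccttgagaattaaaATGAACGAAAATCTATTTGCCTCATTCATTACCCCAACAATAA
The shortest and the longest tRNA are mt-Ts2, a serine tRNA of 59 bases, and mt-Tl1, a leucine tRNA of 75 bases. They are shown because their length set what the gene table could hold for the whole class.
mt-Ts2, chrM:11613-11671, plus strand: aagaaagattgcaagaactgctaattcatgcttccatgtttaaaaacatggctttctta
mt-Tl1, chrM:2676-2750, plus strand: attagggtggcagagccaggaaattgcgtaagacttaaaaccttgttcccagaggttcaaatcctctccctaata

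The map of the 37 genes is compact. Of the 36 junctions between neighbouring genes, 9 were overlaps, 12 had no base between the genes and 14 had a gap of 1 to 5 bases. The widest gap between neighbouring genes was 32 bases, between mt-Tn and mt-Tc. Of the 15 mRNA and rRNA genes, 14 had a tRNA gene as an immediate neighbour, and the exception was mt-Atp6, which lies between mt-Atp8 and mt-Co3. The overlaps between coding genes were 43 bases for mt-Atp8 and mt-Atp6, 7 bases for mt-Nd4l and mt-Nd4, 1 base for mt-Atp6 and mt-Co3, and 14 bases for mt-Nd5 and mt-Nd6, which face each other on opposite strands. The mRNA models of mt-Co3, mt-Nd4 and mt-Cytb end 1 base past their last full codon, and in mitochondria such a stop codon is completed by the poly(A) tail.

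The 22 tRNA genes were listed at 0 counts in both libraries and in all deposited tables. This is no measure of their level. In the gene table the effective length, the number of positions where a read can start, was the transcript length minus 99, and it was 0 for all 28583 entries of 99 bases or fewer. These entries held 0 counts in both libraries, and every mitochondrial tRNA, at 59 to 75 bases, was among them. In the second table the effective length ran from 21.1 for mt-Ts2 in replicate 2 to 25.2 for mt-Tl1 in replicate 1. The tRNAs were at 0 there as well, and the reason was not tested. Of the 22 tRNAs, 14 are encoded on the plus strand of the annotation and 8 on the minus strand. The following results therefore concern the 15 mRNAs and rRNAs, which all had reads in both replicates.

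The mitochondrial genome took 7.13% of all expected counts in replicate 1 and 7.93% in replicate 2, which is 1628632 and 2370020 counts from 15 genes. In TPM its share was 9.68% in replicate 1 and 10.02% in replicate 2. The rRNAs held most of this signal, with 78.2% and 78.8% of the mitochondrial counts and 72.8% and 73.7% of the mitochondrial TPM. The 13 mRNAs held 1.56% and 1.68% of all expected counts, or 355108 and 503369 counts, and 2.63% of all TPM in each replicate. The 7 nuclear copies together held a further 0.746% and 0.801% of all counts, and 2.00% and 2.01% of all TPM. Since spike-ins made for ribosomal-RNA-reduced libraries were used, the rRNA share may describe what remained after such a step and not the tissue, and the effect of that step on these rRNAs was not tested.

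The mitochondrial ribosome contains 1 rRNA in each subunit. mt-Rnr2, the large-subunit rRNA (ENSMUSG00000064339.1, chromosome M, 1094 to 2675), stood at 41179 TPM in replicate 1 and 43804 TPM in replicate 2. mt-Rnr1, the small-subunit rRNA (ENSMUSG00000064337.1, chromosome M, 70 to 1024), stood at 28755 and 29462 TPM. Among all annotated genes they ranked 4 and 5 by TPM in both libraries. mt-Rnr2 was the higher in each library, by 1.43-fold in replicate 1 and 1.49-fold in replicate 2 (1.46 ± 0.04). Before division by length the ratio of their counts was 2.48 and 2.58. The summed rRNA level, 69935 and 73267 TPM, was 2.68 and 2.81 times the summed mRNA level as deposited, 26067.5 and 26112.9 TPM. With the reads of the nuclear copies added, the summed mRNA level was 43892 and 43966 TPM, which lowers these ratios.

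**Figure D1:**
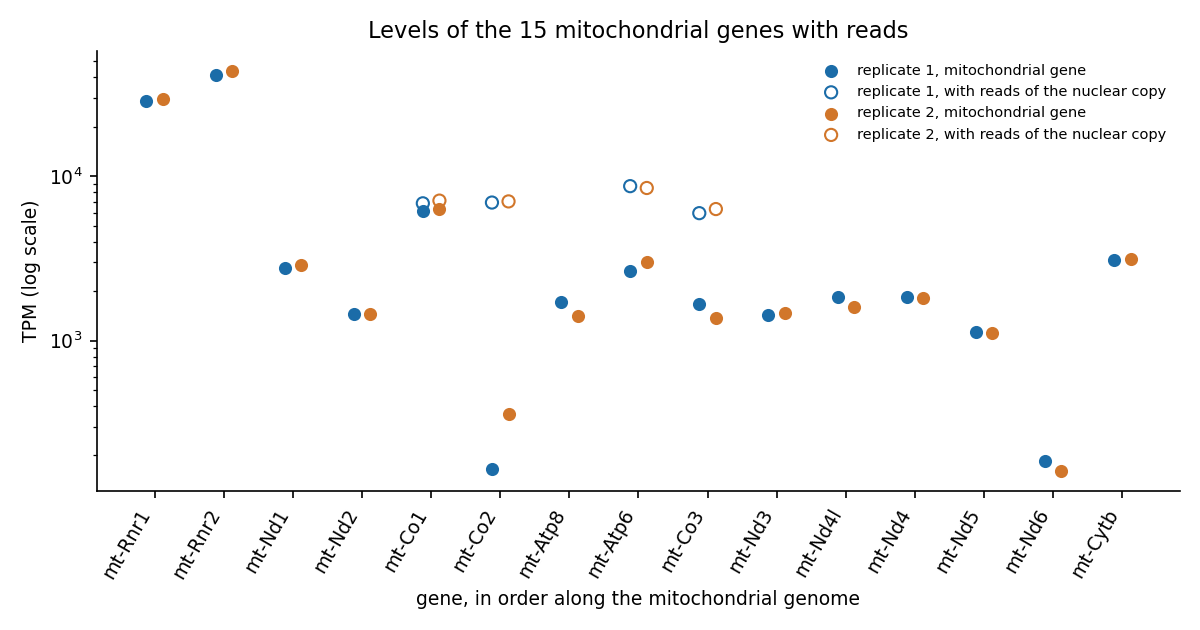
Level in TPM on a log axis of the 15 mitochondrial genes with reads, in order along the genome. Filled points are the mitochondrial gene in each replicate and open points add the reads of its near-identical nuclear copy, which places mt-Co2 at 6916 and 7027 TPM instead of 166 and 358 TPM.

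Of the 13 mRNAs, 11 were among the 100 genes with the highest TPM in both libraries, and mt-Co2 and mt-Nd6 were not. The highest as deposited was mt-Co1, the catalytic subunit of cytochrome c oxidase, and the lowest was mt-Co2 in replicate 1 and mt-Nd6 in replicate 2. The highest was 36.98 times the lowest in replicate 1 and 39.4 times in replicate 2. Ordered by their means, the mRNAs fell into steps that the replicates kept apart and runs within which neighbours overlapped. mt-Co1, mt-Cytb and mt-Nd5 each stood clear of their neighbours. mt-Nd1 and mt-Atp6 overlapped each other, as did mt-Co2 and mt-Nd6 at the bottom. mt-Nd4, mt-Nd4l, mt-Atp8, mt-Co3, mt-Nd3 and mt-Nd2 formed a run in which each overlapped the next.

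Complex I, NADH dehydrogenase, takes electrons from NADH and has 7 mitochondrially encoded subunits, all in its membrane arm. mt-Nd1 had the highest level of these, at 2774 TPM in replicate 1 and 2896 TPM in replicate 2 (2835 ± 86.3). mt-Nd4 stood at 1853 and 1820 TPM (1837 ± 22.7), mt-Nd2 at 1447 and 1452 TPM (1450 ± 3.54), and mt-Nd5 at 1130 and 1111 TPM (1121 ± 13.5). The last 3 named kept nearly the same level in the replicates. mt-Nd3, of 348 bases, stood at 1432 and 1480 TPM (1456 ± 33.9). mt-Nd4l, of 297 bases, stood at 1849 and 1599.7 TPM (1724 ± 176). The near-identical copies of mt-Nd3 and mt-Nd4l received 0 expected counts in both libraries.

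mt-Nd6 is the only protein-coding gene on the minus strand of the annotation (ENSMUSG00000064368.1, chromosome M, 13552 to 14070), transcribed from the light-strand promoter, while the other 12 come from the heavy-strand transcript. It had 186 TPM in replicate 1 and 161 TPM in replicate 2, from 1160 and 1399 counts. The median of the 12 heavy-strand mRNAs was 1783 and 1540 TPM, which is 9.60 and 9.57 times the mt-Nd6 level. Use of strand in counting was not given, so whether the mt-Nd6 counts exclude reads of the opposite strand was not tested. mt-Nd5, the neighbour that overlaps mt-Nd6 by 14 bases, was 6.08 and 6.91 times as high, and mt-Cytb, on its other side beyond a tRNA, was 16.6 and 19.4 times as high. The strand difference also showed in base composition, since the mt-Nd6 transcript had 28.1% G and 5.97% C, whereas the heavy-strand mRNAs had 5.88% to 16.1% G and 22.1% to 29.97% C. Whether base composition has a part in the measured level was not tested.

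Complex III, the cytochrome bc1 complex, passes electrons to cytochrome c and has a single mitochondrially encoded subunit. Its mRNA mt-Cytb (ENSMUSG00000064370.1, chromosome M, 14145 to 15288) stood at 3087 TPM in replicate 1 and 3118 TPM in replicate 2 (3102 ± 22.3). As deposited it was next below mt-Co1, and it shared no 100-base window with a nuclear transcript.

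Complex IV, cytochrome c oxidase, reduces oxygen to water, and each of its 3 mitochondrial mRNAs has a nuclear copy that held reads. mt-Co1 (ENSMUSG00000064351.1, chromosome M, 5328 to 6872) stood at 6124 and 6345 TPM (6234 ± 157). mt-Co3 (ENSMUSG00000064358.1, chromosome M, 8607 to 9390) stood at 1659 and 1365 TPM (1512 ± 208). mt-Co2 (ENSMUSG00000064354.1, chromosome M, 7013 to 7696) had 166 TPM in replicate 1 and 358 TPM in replicate 2, from 1440 and 4333 counts. Its copy Gm28661 meanwhile held 58692 and 80751 counts, 97.6% and 94.9% of the reads of the pair. Gm28437 held 72.2% and 78.4% of the reads of its pair with mt-Co3, and Gm29216 held 10.5% and 10.7% of those of its pair with mt-Co1.

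Complex V, the ATP synthase, makes ATP from the proton gradient, and mt-Atp6 and mt-Atp8 encode subunits of its membrane part from 1 overlapping mRNA. mt-Atp8 stood at 1718 TPM in replicate 1 and 1405 TPM in replicate 2 (1561 ± 221). mt-Atp6 (ENSMUSG00000064357.1, chromosome M, 7927 to 8607) stood at 2644 and 3002 TPM (2823 ± 253), which is 1.54 and 2.14 times mt-Atp8. Gm10925 held 69.6% and 64.6% of the reads of its pair with mt-Atp6, and with these added mt-Atp6 was 5.06 and 6.04 times mt-Atp8. The other overlapping pair on 1 mRNA, mt-Nd4 and mt-Nd4l, stood at ratios of 1.00 and 1.14. How reads that span an overlap were assigned was not tested.

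**Figure D2:**
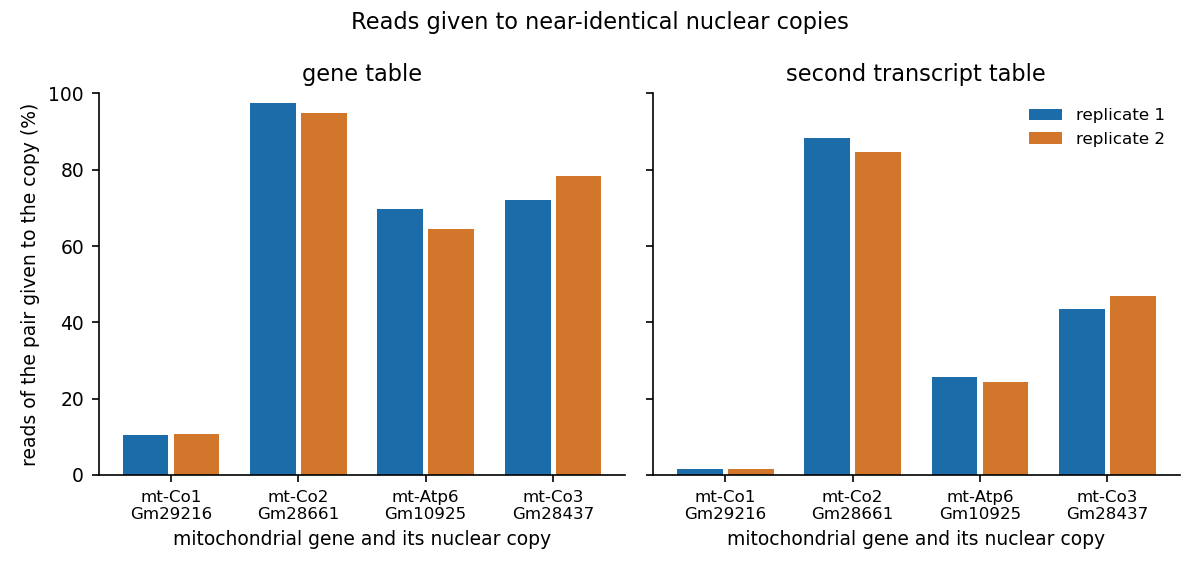
Percent of the reads of each pair that was given to the nuclear copy, per replicate, in the gene table (left) and in the second transcript table (right). For mt-Co2 the gene table gave 97.6% and 94.9% to the copy and the second transcript table gave it 88.4% and 84.6%, while for mt-Co1 no table gave the copy more than 10.7%.

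The division of reads between a mitochondrial gene and its copy differed between quantifiers run on the same libraries. The second transcript table, a separate quantification with estimated counts of its own, gave the copy of mt-Atp6 25.8% and 24.4% of the pair, where the gene table gave it 69.6% and 64.6%. It gave the copy of mt-Co3 43.4% and 46.8%, and the copy of mt-Co1 1.56% and 1.55%. Of mt-Co2 it too gave most to the copy, 88.4% and 84.6%. For mt-Nd4 the second table gave 0.110% and 4.63% to Gm28439, which had 0 counts in the gene table. Which share of these reads came from chromosome 1 was not tested.

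The deposited interval for the posterior mean TPM, another estimate in the gene table, was widest relative to its level for the same 3 mRNAs. For mt-Co2 it ran from 642 to 1365 TPM in replicate 1 and from 784 to 1623 TPM in replicate 2. For mt-Co3 it ran from 1948 to 3472 TPM and from 2077 to 3157 TPM. For mt-Atp6 it ran from 2420 to 3513 TPM and from 2941 to 3884 TPM. By contrast, for mt-Cytb, which has no near-identical copy, it ran from 2925 to 2979 TPM and from 2994 to 3040 TPM. The bounds are given for their width only, since the deposited TPM lay outside its interval in 13 and 12 of the 15 members.

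Adding each copy's reads to its mitochondrial gene gave the level each transcript would have if all these reads were mitochondrial, an assumption that was not tested. mt-Atp6 then stood highest of the mRNAs, at 8701 TPM in replicate 1 and 8479 TPM in replicate 2 (8590 ± 157), where it had ranked 4 as deposited. mt-Co1 stood at 6841 and 7105 TPM, and mt-Co2 at 6916 and 7027 TPM, so that the replicates of this pair overlapped. mt-Co3 stood at 5960 and 6312 TPM. The 3 mRNAs of complex IV thus lay within 5960 and 7105 TPM of each other, where the deposited values ran from 166 to 6345 TPM. mt-Co2 moved from rank 12 of 13 to rank 3 and mt-Co3 from rank 8 to rank 4, while mt-Nd6 remained lowest at rank 13. The median heavy-strand mRNA was then 12.4 and 14.7 times mt-Nd6.

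Counts of 4 copies carried these sums. Gm28661, Gm10925, Gm28437 and Gm29216 had levels of 6785, 6088, 4307 and 2641 TPM in replicate 1 and 6703, 5505, 4955 and 2795 TPM in replicate 2. Gm10222, Gm28438 and Gm28439 were at 0 counts. Their posterior mean TPM was above 0, at 139.5 and 90.3 for Gm10222, 5.38 and 6.41 for Gm28438 and 0.61 and 0.48 for Gm28439. The split of reads between mt-Nd4l and Gm10222 thus also depends on the estimate. Of 29 nuclear genes with a transcript that matched a mitochondrial gene over at least 100 bases at 80% identity or more, 7 had reads in the gene table. Those outside the chromosome 1 block with at least 10 counts were Gm13340 and Gm13341 on chromosome 2. Gm13340, 97.6% identical to mt-Co1, had 37.02 and 38.76 counts, and Gm13341, 95.9% identical to mt-Co2, had 15.4 and 25.9 counts. Both were far below the 4 copies of the block that held reads.

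Levels were also set against position on the heavy-strand transcript, length and base composition. Across the 12 heavy-strand mRNAs, Spearman's rho between level and start position was −0.02 as deposited and −0.22 with copies added. It was 0.17 and −0.01 for transcript length, and 0.34 and 0.46 for GC content. These are descriptions across genes of the same libraries, which share 1 precursor and are not independent.

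**Figure D3:**
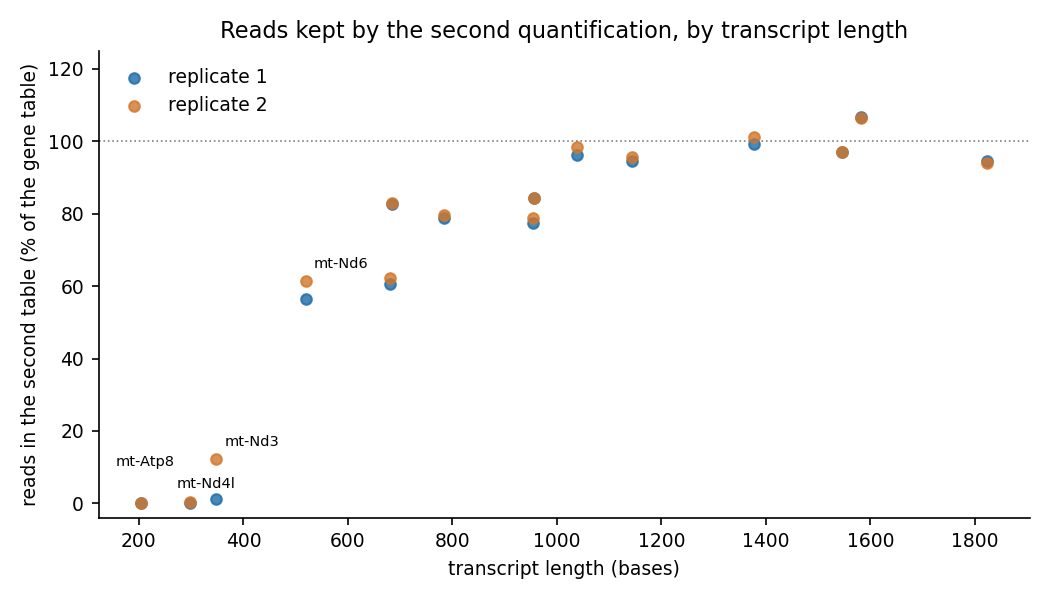
Reads in the second transcript table as a percent of those in the gene table, copies included in both, against transcript length for the 15 mitochondrial genes, with 1 point per replicate. The 3 shortest mRNAs lie at 12.3% or below, and the 6 longest genes lie between 93.96% and 107%.

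The second table also treated short mitochondrial mRNAs differently. Its length columns correspond to an assumed fragment of about 347 bases for replicate 1 and about 345 for replicate 2. mt-Atp8, of 204 bases, was listed at 0 there against 2681 and 3053 expected counts in the gene table. mt-Nd4l had 4 and 20 counts there against 5440 and 6556, and mt-Nd3 had 60 and 941 against 5299 and 7627. mt-Nd6, of 519 bases, kept 56.4% and 61.5% of its gene-table counts. The plot of reads kept by length shows that the 3 shortest mRNAs are those with the lowest shares. For the longer members the tables lay closer, with mt-Cytb at 94.6% and 95.6% and mt-Rnr2 at 107% in each replicate.

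The mitochondrial mRNAs stood far above the nuclear mRNAs for subunits of the same complexes. Their median level was 1718 TPM in replicate 1 and 1480 TPM in replicate 2, against 106 and 108 TPM for 72 nuclear subunit genes of complexes I, III, IV and V, ratios of 16.2 and 13.7. With copies added the ratios were 17.5 and 16.9. Of the 13 mitochondrial mRNAs, 11 had a mean level above Atp5b, the catalytic beta subunit of the ATP synthase and the highest nuclear gene of these lists at 733 TPM. The exceptions were mt-Co2 and mt-Nd6, and with copies added only mt-Nd6 stayed below.

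Within complex I the 7 mitochondrial mRNAs had a median of 1447 and 1480 TPM, against 86.5 and 84.2 TPM for 37 nuclear subunits. Ndufa3, an accessory subunit, was the highest of these nuclear genes at 226 TPM, and Ndufb4 was the lowest at 36.6 TPM. Neither kept that place in the second table, where Ndufa3 had 132 and 140.0 TPM and Ndufb4 had 156 and 171 TPM around a list median of 150.4 and 157 TPM. In the gene table all mitochondrial members but mt-Nd6 exceeded Ndufa3. In complex III mt-Cytb was 20.1 and 20.9 times the median of 9 nuclear subunits, which was 153 and 149 TPM. Among these, Uqcrh, the hinge protein, averaged 185 TPM and Uqcrfs1, the Rieske iron-sulfur protein, 62.6 TPM.

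In complex IV the ratio depended on the copies. The median of its 3 mitochondrial mRNAs was 1659 and 1365 TPM, against 250.01 and 252 TPM for 11 nuclear subunits. The ratios were 6.64 and 5.41 and became 27.4 and 27.8 with copies added, which changed the mitochondrial side only. In the second table without copies these medians were 5226 and 5492 TPM against 428 and 490 TPM. The nuclear levels thus also differed between the quantifications. Cox4i1 was the highest nuclear member at 493 TPM and Cox7b the lowest at 138 TPM, places that neither held in the second table. In complex V the 2 mitochondrial mRNAs had a median of 2181 and 2203 TPM, against 132 and 150.3 TPM for 15 nuclear subunits. The ratios were 16.5 and 14.7 and became 39.4 and 32.9 with copies added, again on the mitochondrial side only. In the second table these medians were 4257 and 4535 TPM, with mt-Atp8 at 0, against 278 and 301 TPM. Atp5g2, a gene for the membrane ring subunit c, was the lowest nuclear member at 4.84 TPM, but it had 151 and 182 TPM in the second table, where it was not the lowest, so its level is uncertain. Complex II, succinate dehydrogenase, has no mitochondrially encoded subunit, and its 4 nuclear mRNAs had a median of 76.6 and 83.2 TPM, between Sdhd at 43.3 TPM and Sdha at 149 TPM.

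**Figure D4:**
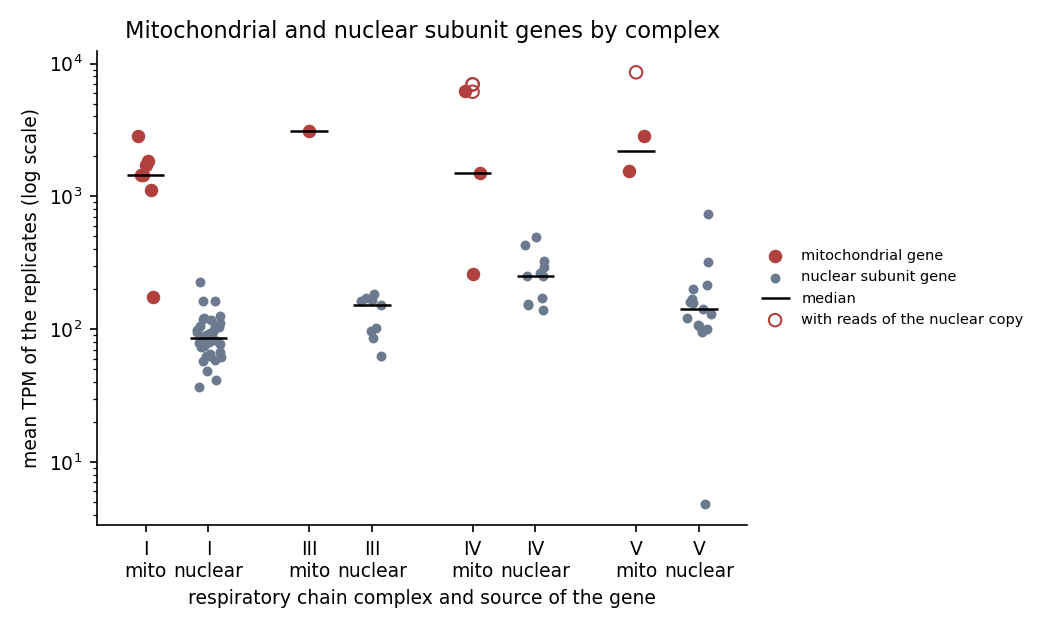
Mean TPM of the replicates, on a log axis, for mitochondrial genes (red) and nuclear subunit genes (grey) of complexes I, III, IV and V, with a line at each median. Open red points add the reads of the nuclear copy, and in every complex the mitochondrial median lies above the highest nuclear gene.

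The replicates were set side by side as the log2 ratio of replicate 2 over replicate 1, after TMM scaling, a method that assumes most genes do not differ, with a 95% counting interval. A gene was called where the ratio was at least 0.32 in size with an interval that excluded 0. These intervals cover counting error only. Among 12347 genes with a mean count of at least 100, this rule called 4.75% higher and 5.81% lower in replicate 2, 10.6% in all, and their median log2 ratio was 0.05. With 2 libraries of 1 group no test between conditions exists, so calls describe these libraries.

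Of the 15 mitochondrial genes with reads, 1 was called (10.6% of all genes tested were), mt-Co2, which was higher in replicate 2 with a log2 ratio of 1.245 (interval 1.16 to 1.33). This is the member with the largest share of its pair's reads given to the copy. With copies added its log2 ratio was 0.16 (0.14 to 0.17), and 0 of the 15 genes were called. mt-Atp6, at 0.32 (0.29 to 0.34), lay just under the threshold as deposited and at 0.10 (0.08 to 0.11) with its copy. mt-Co3 lay at −0.15 (−0.18 to −0.12) as deposited and at 0.22 (0.20 to 0.23) with its copy, so its sign turned. mt-Co1 kept a ratio of 0.19 in either form.

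**Figure D5:**
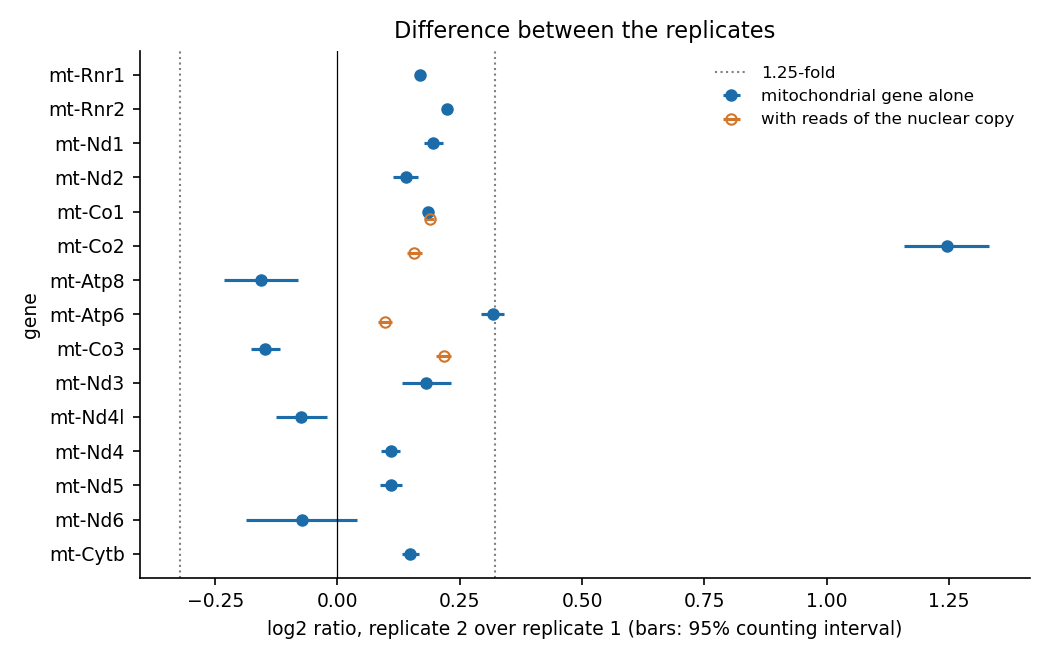
Log2 ratio of replicate 2 over replicate 1 for the 15 mitochondrial genes with reads, with 95% counting intervals as bars and dotted lines at the call threshold of 0.32 to either side. As deposited (filled points) mt-Co2 alone lies past a dotted line, at 1.245, and with the copy's reads (open points) it lies at 0.16.

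The members without a near-identical copy that held expected counts differed little between the libraries. The rRNAs lay at 0.22 (0.22 to 0.23) for mt-Rnr2 and 0.17 (0.16 to 0.18) for mt-Rnr1. The long mRNAs mt-Nd1, mt-Nd2, mt-Nd4, mt-Nd5 and mt-Cytb lay at 0.20, 0.14, 0.11, 0.11 and 0.15, and mt-Nd3 at 0.18. Below 0 lay mt-Atp8 at −0.16 (−0.23 to −0.08), mt-Nd4l at −0.07 (−0.13 to −0.02) and mt-Nd6 at −0.07 (−0.19 to 0.04), the last with an interval that included 0. The median of the 13 mRNAs, 0.14, exceeded that of all genes by 0.09 whichever of the count scalings was used, since a scaling moves all genes together. Scaling to the spike-ins moved the median of all genes by −0.13 and deposited TPM moved it by −0.15, so signs near 0 depend on the scaling.

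Nuclear subunit genes of complexes I, III, IV and V had a median log2 ratio of 0.18 over the 71 with a mean count of at least 100. Of these, 64 lay above the median of all genes, beside 11 of the 15 mitochondrial genes. By the call rule 2 of the 71 were higher in replicate 2 and 0 were lower, where 4.37% of 11646 nuclear protein-coding genes were called higher, 4.04% lower and 8.41% in all. The called genes were Cox7c, a small subunit of complex IV, at 0.35 (0.23 to 0.47), and Atp5e, the epsilon subunit of the ATP synthase, at 0.39 (0.24 to 0.55). Atp5g2, whose level is uncertain, lay at −0.75 (−1.36 to −0.15) with a mean count of 49.97, under the minimum for the count. By complex the median was 0.17 for I, 0.25 for II, 0.18 for III, 0.22 for IV and 0.17 for V.

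The nuclear genes that act on mitochondrial RNA were expressed at a small fraction of the level of its products. For 10 genes of mitochondrial transcription the median was 8.07 TPM in replicate 1 and 7.74 TPM in replicate 2, between Polrmt, the mitochondrial RNA polymerase, at 22.5 TPM and Mterf1b at 2.23 TPM. For 8 genes of mitochondrial DNA maintenance it was 4.34 and 4.67 TPM, between Polg, the mitochondrial DNA polymerase, at 44.4 TPM and Dna2, a nuclease and helicase, at 0.405 TPM. For 14 genes of RNA processing it was 12.3 and 10.3 TPM, between Fastk at 50.9 TPM and 1110008L16Rik at 3.005 TPM. For 7 genes of RNA stability and decay it was 13.1 and 13.5 TPM, between Rexo2, an oligoribonuclease, at 44.6 TPM and Pde12, a phosphodiesterase that shortens poly(A) tails, at 4.05 TPM. In the second table Polrmt was not the highest of its list. Fastk was the highest there in replicate 1, at 91.6 TPM against 83.6 TPM for Grsf1, but not in replicate 2, at 84.6 against 95.9 TPM. Every one of these medians was below 1% of the median mitochondrial mRNA.

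Genes of mitochondrial translation lay in the same range. The median of 14 rRNA and tRNA modification genes was 9.07 and 7.60 TPM, between Trub2, a pseudouridine synthase, at 18.9 TPM and Mettl15, an rRNA methyltransferase, at 2.30 TPM. The median of 20 genes that charge mitochondrial tRNAs was 9.55 and 9.21 TPM, between Lars2 at 18.0 TPM and Pars2 at 2.28 TPM, the enzymes for leucine and proline. Lars2 was the highest by its mean, but in replicate 2 Fars2, at 18.9 TPM, exceeded the 15.5 TPM of Lars2. In the second table Lars2 had 96.2 and 81.4 TPM. The 78 mitochondrial ribosomal protein genes had a median of 23.4 and 22.9 TPM, between Mrps21 at 66.8 TPM and Mrpl23 at 3.04 TPM. In the second table neither held that place, and Mrpl23 had 42.6 and 49.6 TPM, above the list median of 37.6 and 36.5 TPM there. Thus the ribosomal proteins were the more abundant of these lists, at a level near that of the median gene among the 12347, which was 19.0 and 17.5 TPM. The 6 nuclear regulators of mitochondrial genes had a median of 14.2 and 12.2 TPM, between Esrra, an orphan nuclear receptor, at 31.1 TPM and Nrf1, a transcription factor, at 9.47 TPM, which was not the lowest in the second table. Genes of the outer membrane and the matrix, 8 in all, stood higher, at 81.5 and 89.2 TPM, between Vdac1, the outer membrane channel, at 240 TPM and Hspe1, a matrix chaperone, at 39.8 TPM.

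Between the replicates 8.41% of nuclear protein-coding genes were called in all, and the calls in these lists were as follows. Of the RNA processing list, 3 of 14 were higher in replicate 2, namely Hsd17b10, a subunit of mitochondrial RNase P, at a log2 ratio of 0.57, Fastkd3 at 0.43 and Fastkd5 at 0.35. Mterf4 of 7 tested transcription genes, at −0.34, and Ssbp1, the single-stranded DNA binding protein, of 5 tested maintenance genes, at −0.38, were lower. Of 13 tested modification genes, Trmt61b, an RNA methyltransferase, and Trmu, which thiolates tRNA, were lower, each at −0.38, and Mettl15 lay at 0.52 with a mean count of 75, under the minimum. Gatb, which helps charge glutamine tRNA, was higher at 0.40, 1 of 19 tested. Of 76 tested mitochondrial ribosomal protein genes, 6 were higher and 0 lower, namely Mrpl20, Mrpl27, Mrpl41, Mrpl44, Mrpl46 and Mrpl55, with log2 ratios of 0.34 to 0.45. Of the stability and decay, regulator, and outer membrane and matrix lists, 0 of 7, 0 of 6 and 0 of 8 were called. Against the shares called among nuclear protein-coding genes, 4.37% higher and 4.04% lower, these counts are small numbers of genes from lists chosen with earlier results known.

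The median log2 ratios of these lists lay on both sides of the median of all genes, 0.05. They were 0.13 for the mitochondrial ribosomal proteins and 0.16 for the outer membrane and matrix genes. They were 0.04 for transcription, 0.10 for DNA maintenance, 0.03 for RNA processing and 0.03 for stability and decay. They were −0.06 for modification, −0.01 for the enzymes that charge tRNAs and −0.06 for the regulators. Among the cell type markers the call rule was met by Cnp, Cx3cr1, Cldn5 and the 10 striatal genes, and by Opalin with a mean count of 84, under the minimum. The median log2 ratios were 0.07 for the neuronal, 0.08 for the astrocyte, 0.20 for the oligodendrocyte, 0.18 for the microglial, 0.03 for the endothelial, 0.04 for the erythroid and 1.11 for the striatal list. Whether the source of the difference in striatal markers has a part in the mitochondrial ratios was not tested.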

How the data were processed

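Total RNA sequencing of 2 libraries of the left cortex was analysed from the deposited tables, with mm10 and GENCODE M21 as the assembly and annotation per the deposited file lists. The deposited expected counts of the gene table, in the column layout of RSEM, and the estimated counts deposited in the second transcript table, in that of kallisto, are neither whole nor normalized. The deposited TPM and posterior mean TPM are scaled to a fixed total over all listed features per the file headers. Aligner, version and use of strand were not given in the sources used here.

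Genes were matched by identifier. Expected counts were rounded, scaled with TMM in edgeR 4.0.16 (R 4.3.3, Python 3.11.15; factors 1.016 and 0.9843) and 0.5 was added for log2 ratios, with exact Clopper-Pearson 95% intervals. The ratio and its interval were tested on simulated data with counting noise alone, so this does not cover the larger spread between these libraries. Nuclear copies were found with blastn 2.17.0, searching annotated transcripts for at least 100 aligned bases at 80% identity, and near-identical meant 99% identity over 90% of the copy. Library depth was 22827996 and 29897545 expected counts, and reads carry no molecular identifiers, so intervals cover counting error only. Counts of the replicates differed by more than sampling noise, so they were kept as 2 samples. The chi-square per degree of freedom was 18.5 over all genes with a mean count of at least 100 and 1333 over the mitochondrial genes. This value grows with the count at a given fold, so the 2 figures do not compare the spread of the sets.

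Alternatives were DESeq2 1.42.0 size factors, spike-in scaling, other call folds, the second table, counts per length and leaving out a replicate. The posterior mean TPM and the addition of copy reads were chosen after seeing the data. The members and gene lists were chosen with earlier results of these data known. All 37 members are accounted for. Nuclear genes were named as the highest and lowest of each mitochondrial list and every member past the call fold, and as the 5 copies with the highest counts. Of marker lists the sums are given, with the names of called members. Gm13341, Gm10222, Gm28438 and Gm28439 were named after their values were seen.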

Additional observations from a re-analysis of the deposited data

How the results depend on the processing

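Leaving out either replicate gave 7.13% to 7.93% for the mitochondrial share of counts, 9.68% to 10.02% for that of TPM, 36.98 to 39.4 for the highest over the lowest mRNA, 1.43 to 1.49 for mt-Rnr2 over mt-Rnr1, 9.57 to 9.60 for the median heavy-strand mRNA over mt-Nd6 and 13.7 to 16.2 for the mitochondrial over the nuclear median. Over mitochondrial and nuclear protein-coding genes alone the shares were 8.51% of counts and 17.7% of TPM, and with copies added the share of counts was 8.30%. In the second table the share of TPM was 15.6%, mt-Rnr2 over mt-Rnr1 was 1.70, the heavy-strand median over mt-Nd6 was 8.84 and the mitochondrial over the nuclear median was 12.001. The mitochondrial medians there leave out the copies. They include mt-Atp8 at 0, mt-Nd4l at 5.20 and 20.4 TPM and mt-Nd3 at 62.4 and 762 TPM. Counts not divided by length gave 2.53 for mt-Rnr2 over mt-Rnr1. The highest over the lowest mRNA, 38.2 in the mean, was 43.0 from counts divided by gene length, 36.2 from the posterior mean TPM and 49.8 with copies added, and the second table gave no value because mt-Atp8 was listed at 0. The lowest heavy-strand mRNA, mt-Co2, was 1.56 times mt-Nd6 in the mean of the ratios, but lay below it in replicate 1 (166 against 186 TPM) and above it in replicate 2 (358 against 161 TPM), so leaving out a library turns this direction, and with copies added the heavy-strand median was 13.6 times mt-Nd6 and the mitochondrial 17.2 times the nuclear median. The median log2 ratio of the mRNAs, 0.14, was 0.014 under spike-in scaling, 0.091 under TMM over nuclear protein-coding genes, 0.22 in the second table and 0.0050 from deposited TPM. That of the nuclear subunits, 0.18, was 0.050, 0.13, 0.22 and 0.040 in the same order. All 71 nuclear subunits tested lay above 0 under TMM over all genes, and 50 did under spike-in scaling. The number of mitochondrial genes called, 1, was 3 in the second table (mt-Co2, mt-Nd3 and mt-Nd4l), 0 with copies added and 11 at a fold of 1.1. In the second table mt-Nd3 lay at a log2 ratio of 3.68, and mt-Nd4l at 1.90, opposite in sign to its value of −0.07, from 4 and 20 counts. No value called in the gene table reversed, while mt-Co3, which was not called, changed sign with copies added, as given above. In the second table mt-Co3 lay at 0.20, and mt-Nd6 at 0.11, opposite in sign to its value of −0.07. mt-Nd4 and mt-Nd5, each at 0.11, both lay at −0.02 under spike-in scaling. From deposited TPM they lay at −0.03 and −0.02. Among other values under the alternatives, namely ratios and ranks of single genes and the percent of all genes called (14.96% from a mean count of 10 and 5.34% with no filter, against 10.6%), 140 kept their side of the threshold or moved within the replicate spread, 42 moved beyond it, 2 came past the call threshold and 1 fell below it. Changes of sign short of a call are counted among the 140. The causes of these shifts were not tested beyond what each alternative's construction shows. No paired analysis was possible because the series holds a single group. Depth did not limit the members, but transcripts shorter than a read, all 22 tRNAs among them, could not be measured in the gene table. In the second table the tRNAs were at 0 too.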
